A study of Mus musculus with 6 samples.

Results

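Integrins are the receptors that tie a cell to the matrix around it. This account follows 10 of their subunit genes, Itgav, Itga3, Itga5, Itga6, Itga7, Itga9, Itgb1, Itgb3, Itgb4 and Itgb5, in mouse embryonic stem cells (mESCs) that had lost Dcr. The members were taken by symbol, from a list drawn up with earlier results of these arrays known, and the rule itself uses no measured value. They are 10 of the 18193 genes on the array that carry a symbol of their own, and 31 of its 45037 probe sets. A probe set is the group of short oligonucleotides that reads a stretch of a transcript, and a gene can have several.

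RNA was profiled in Dcr KO and Dcr WT mESCs, with 3 arrays in each group. Both groups came from feeder-free mESCs whose Dicer1 alleles are floxed, grown on gelatin with fetal calf serum and LIF, and RNA was taken 5 days after transfection. Dcr KO cells had received GFP and Cre recombinase, which cuts out the floxed segment. Dcr WT cells had received GFP alone and kept intact Dicer genes. The Dcr KO cells were a polyclonal population, so cells that escaped deletion can remain in it. No arm had Cre but no floxed gene, so an effect of Cre and that of the deletion cannot be told apart. The methods call the arrays biological triplicates, but the age and the strain of the line are not given in the sources used here.

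An integrin is a pair of an alpha and a beta subunit, and the pair decides which matrix protein is bound. The beta1 subunit joins most alpha subunits, among them alpha3 and alpha6 (laminin receptors), alpha5 (the fibronectin receptor), alpha7 (a laminin receptor of muscle) and alpha9 (a tenascin receptor). The alphav subunit joins several beta subunits, among them beta1, beta3, beta5 and beta8, and binds vitronectin, fibronectin and the latent form of TGF-beta. The beta4 subunit joins only alpha6, in the hemidesmosomes of epithelia. Inside the cell talin and kindlin switch the receptor on, and kinases and adaptors link it to actin. mESCs without feeder cells hold on to their dish through such receptors.

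Dicer cuts miRNA precursors to their mature form, and the study asks which messages rise once the miRNAs of mESCs are lost. The most abundant of these in mESCs come from the mir-295 cluster on chromosome 7. The family whose loss is the subject of the study shares AAGUGC at bases 2 to 7. Its members in the cluster are miR-292-3p and the 5 shown here, for which the table of miRNAs used has a sequence. Bases 2 to 8, the seed by which a miRNA finds its targets, are in capitals.
mmu-miR-290a-3p: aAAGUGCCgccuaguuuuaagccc
mmu-miR-291a-3p: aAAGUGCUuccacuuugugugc
mmu-miR-291b-3p: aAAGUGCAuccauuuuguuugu
mmu-miR-294-3p: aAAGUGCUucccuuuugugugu
mmu-miR-295-3p: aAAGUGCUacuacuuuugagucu
The sequences are those of RefSeq on GRCm38.p6, plus strand, at chr7:3218674-3218697, chr7:3218968-3218989, chr7:3219529-3219550, chr7:3220691-3220712 and chr7:3220815-3220837, in the order shown. By seed, miR-291a-3p, miR-294-3p and miR-295-3p form a group with AAGUGCU, while miR-290a-3p has AAGUGCC and miR-291b-3p has AAGUGCA. Among the 1738 mature miRNAs with an entry in the table, which is not complete, 8 have AAGUGC at bases 2 to 7, namely these 5, 2 of mir-302 and 1 other. The study's list of predicted targets of this family holds Itgav and, among the genes named later, Nid1, Adam9, Ccn2 (as Ctgf), Thbs1, Col4a1, Lima1, Sdc2 and Neurod1. It also holds Nfatc2ip, Cyld and Topors, which are named later for their correlation with Itgav or Itgb1. That list was drawn in part from higher values on these arrays, so a higher value of any of them is not independent evidence of its direction. Apart from the arrays, the study put 3' untranslated regions of several candidates into luciferase reporters, and lists primers for those of Itgav and Thbs1. It reports at least mild repression, in Dcr WT against Dcr KO cells, for every candidate tested. Target sites in the messages were not analysed here.

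Values are log2 expression as deposited, and a gene value is the mean over the gene's probe sets. Differences are Dcr KO minus Dcr WT. They were tested with limma on the 8782 genes whose mean log2 level reached 4 (16 on the linear scale), and likewise on 18789 probe sets. A gene was called at a Benjamini-Hochberg adjusted p under 0.05. The targeted gene checks the labels. Dicer1 had 6.33, 6.59 and 5.92 on the Dcr KO arrays, against 7.78, 7.89 and 7.16 on the Dcr WT arrays. It was lower on every Dcr KO array, with a difference of -1.33 (SE 0.23, adjusted p = 0.0134 from limma). By probe set, 1427941_at differed by -1.84 (adjusted p = 0.0138 from limma) and 1460571_at by -0.82 (adjusted p = 0.0908), which was not called. Correlations over all probe sets were 0.994 to 0.997 between Dcr KO arrays, 0.992 to 0.996 between Dcr WT arrays and 0.984 to 0.994 across the groups. Depth has no meaning for an array, and the number of arrays limits the precision.

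None of the 10 integrin genes passed the test. Of these, 5 could be tested, namely Itgav, Itga3, Itga6, Itgb1 and Itgb5. The other 5, Itga5, Itga7, Itga9, Itgb3 and Itgb4, had a mean under the minimum. Limma called 0 of the 5 tested genes higher and 0 lower, while it called 6.91% of all tested genes higher and 6.42% lower. Before adjustment, 1 of the 5 had a p under 0.05, Itgav, beside 32.0% of all tested genes. Of the 31 integrin probe sets 14 were tested, and 0 were called in either direction, beside 4.69% of all tested probe sets called higher and 3.07% called lower. Before adjustment, 5 of the 14 had a p under 0.05, beside 27.7% of all tested probe sets. The tested members had differences between -0.24 (Itgb5) and 0.49 (Itgav) and a median of 0.31, beside a median of -0.02 over all tested genes.

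**Figure D1:**
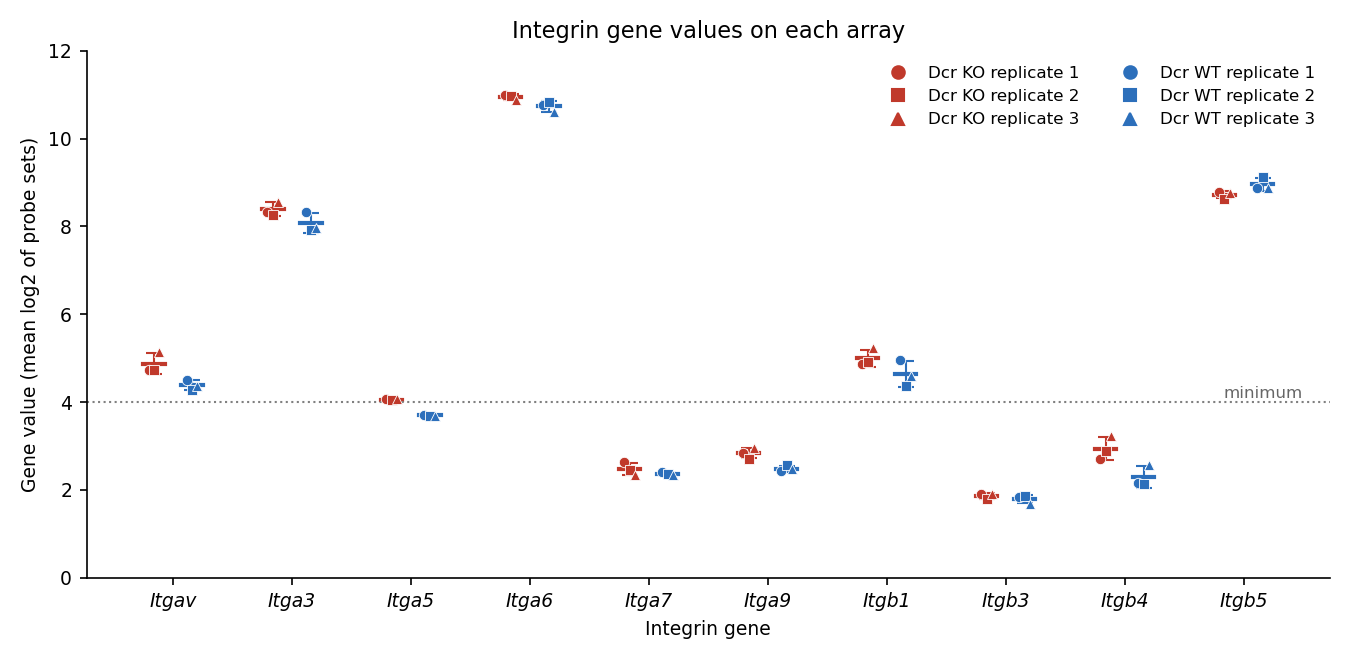
Gene values of the 10 integrin genes on each array, on the log2 scale, with Dcr KO in red left of Dcr WT in blue. Points are arrays, thick bars are means, whiskers are 1 SD (n = 3), and the dotted line is the minimum of 4 for a test, under which the means of Itga5, Itga7, Itga9, Itgb3 and Itgb4 lie.

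The Dcr KO arrays lay above all Dcr WT arrays for 5 of the 10 genes, Itgav, Itga5, Itga6, Itga9 and Itgb4. They lay below them for 1, Itgb5. Of these, Itga5, Itga9 and Itgb4 had means under the minimum, where no share over all genes was taken. Of the 5 tested genes, the Dcr KO arrays lay above for 2, Itgav and Itga6, and below for 1, Itgb5. Among all tested genes the Dcr KO arrays lay above in 17.7% and below in 21.2%. By probe set they lay above in 4 of the 14 tested and in 5 of the 17 under the minimum. The shares over all probe sets were 16.8% of those tested and 7.56% of those under the minimum. They lay below in 2 of the 14, both of Itgb5, and in 0 of the 17, beside 18.9% and 7.47% of all. In a bulk sample, fewer cells with a message and less of it per cell cannot be told apart.

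Itgav, the alphav subunit, had the smallest p among the tested members. Its gene value was 4.72, 4.74 and 5.14 on the Dcr KO arrays, against 4.50, 4.28 and 4.38 on the Dcr WT arrays. The groups did not overlap, and Dcr KO replicate 3 was the highest. The difference was 0.49 (SE 0.14, 95% interval 0.16 to 0.81), a 1.40-fold higher mean, with an adjusted p of 0.057 from limma. That gene value averages 5 probe sets of very different brightness, of which 2 passed the minimum.

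The brightest Itgav probe set, 1452784_at, read 10.90, 10.88 and 11.16 in Dcr KO, against 10.19, 10.58 and 10.03 in Dcr WT. Every Dcr KO array was above every Dcr WT array. The difference was 0.71 (95% interval 0.31 to 1.12), a 1.64-fold higher mean, with an adjusted p of 0.053 from limma. The probe set 1421198_at read 5.56, 6.03 and 7.23 in Dcr KO, against 5.56, 3.63 and 4.71 in Dcr WT. Its replicates were widely spread, Dcr KO replicate 1 and Dcr WT replicate 1 had the same value, and the difference was 1.64 (95% interval 0.27 to 3.01, adjusted p = 0.126 from limma). The other 3 Itgav probe sets lay under the minimum, with differences of 0.23, 0.02 and -0.18 and overlapping groups.

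Whether Itgav was called turned on how its gene value was made. With its brightest probe set as the gene value it was called higher (0.71, adjusted p = 0.0286 from limma). It was also called with the mean of its probe sets of at least 4 (1.18, adjusted p = 0.0341 from limma).

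The beta partners of alphav had differences of either sign. Itgb5, the beta5 subunit, had 8.79, 8.63 and 8.76 in Dcr KO cells, against 8.87, 9.14 and 8.88 in Dcr WT cells. It was the only member with every Dcr KO array below every Dcr WT array, at 85.0% of the Dcr WT mean. The difference was -0.24 (95% interval -0.50 to 0.03, adjusted p = 0.196 from limma).

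Its 4 probe sets were all tested, and all 4 differences were below 0. The probe set 1417533_a_at read 8.29, 8.04 and 8.46 in Dcr KO, against 8.65, 8.96 and 8.56 in Dcr WT. The groups did not overlap, and the difference was -0.46 (95% interval -0.84 to -0.08, adjusted p = 0.126 from limma). The probe set 1417534_at read 9.13, 9.02 and 9.09 in Dcr KO, against 9.16, 9.23 and 9.15 in Dcr WT, again without overlap and with a difference of -0.10. The remaining pair, 1456133_x_at and 1456195_x_at, had differences of -0.29 and -0.09 with overlapping groups, and their suffix marks probe sets that may also bind other transcripts. The 4 differences shared a sign and ran between -0.46 and -0.09.

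Itgb3, the beta3 subunit, known best from platelets and osteoclasts, was dim on every array. Its gene value was 1.91, 1.79 and 1.92 in Dcr KO and 1.84, 1.86 and 1.68 in Dcr WT. Both of its probe sets lay under the minimum with overlapping groups. Tested with no minimum, the gene differed by 0.08 (adjusted p = 0.695 from limma).

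Itgb1, the beta1 subunit that most alpha subunits need, had a gene value of 4.86, 4.91 and 5.22 in Dcr KO, against 4.96, 4.37 and 4.60 in Dcr WT. Dcr WT replicate 1 lay above Dcr KO replicates 1 and 2, so the groups overlapped. The difference was 0.36 (SE 0.17, 95% interval -0.04 to 0.75, adjusted p = 0.192 from limma).

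Of the 6 Itgb1 probe sets 2 were tested, and both are bright. The probe set 1426918_at read 10.61, 10.62 and 11.21 in Dcr KO, against 10.63, 9.87 and 10.15 in Dcr WT. Its difference was 0.60 (95% interval 0.01 to 1.18, adjusted p = 0.174 from limma). The probe set 1452545_a_at read 9.70, 9.72 and 10.44 in Dcr KO, against 9.86, 8.77 and 9.06 in Dcr WT, with a difference of 0.72 (95% interval -0.05 to 1.49, adjusted p = 0.202 from limma). In both, Dcr WT replicate 1 was level with or above the first and second Dcr KO replicates, and Dcr KO replicate 3 stood alone at the top. The 4 probe sets under the minimum had overlapping groups and differences between -0.05 and 0.62.

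Itga5, the alpha subunit of the fibronectin receptor, fell just under the minimum as a gene, with 4.07, 4.04 and 4.07 in Dcr KO and 3.71, 3.70 and 3.69 in Dcr WT. The groups did not overlap, with a difference of 0.36. This mean of 4 probe sets had an SD of 0.017 in Dcr KO and 0.013 in Dcr WT. Its probe set 1423267_s_at spread more, with 0.22 and 0.26. Only 1 of its 4 probe sets, 1423267_s_at, passed the minimum. It read 7.24, 7.01 and 7.44 in Dcr KO, against 6.36, 6.80 and 6.33 in Dcr WT. Every Dcr KO array was above every Dcr WT array, and the difference was 0.73 (95% interval 0.31 to 1.15), a 1.66-fold higher mean, with an adjusted p of 0.054 from limma.

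The suffix of that probe set marks a design whose probes can fit more than 1 transcript. The dim 1423268_at also had its Dcr KO arrays on top, with 3.00, 3.27 and 3.50 in Dcr KO and 2.86, 1.97 and 2.54 in Dcr WT. The remaining pair, 1458996_at and 1457561_at, overlapped, with differences of -0.01 and -0.07.

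Itga5 was called higher with its brightest probe set as the gene value (0.73, adjusted p = 0.0291 from limma). It was called too with the mean of its probe sets of at least 4 (0.73, adjusted p = 0.0314) and with no minimum (0.36, adjusted p = 0.0405). With no minimum, Itgb4 (adjusted p = 0.0582) and Itga9 (adjusted p = 0.0719) did not pass.

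At the level of probe sets, the calls of both genes depended on the settings and on an array. With all arrays, limma called neither 1452784_at of Itgav nor 1423267_s_at of Itga5 at the minimum of 4. It called both with a minimum of 5 (adjusted p = 0.0467 for Itgav and 0.0475 for Itga5) and with a variance trend (adjusted p = 0.0212 and 0.0478). With quantile normalization it called that of Itgav alone (adjusted p = 0.0499). Without Dcr WT replicate 2, which was the highest Dcr WT array on each, limma called 1452784_at of Itgav (0.87, adjusted p = 0.0315) and 1423267_s_at of Itga5 (0.89, adjusted p = 0.0364).

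**Figure D2:**
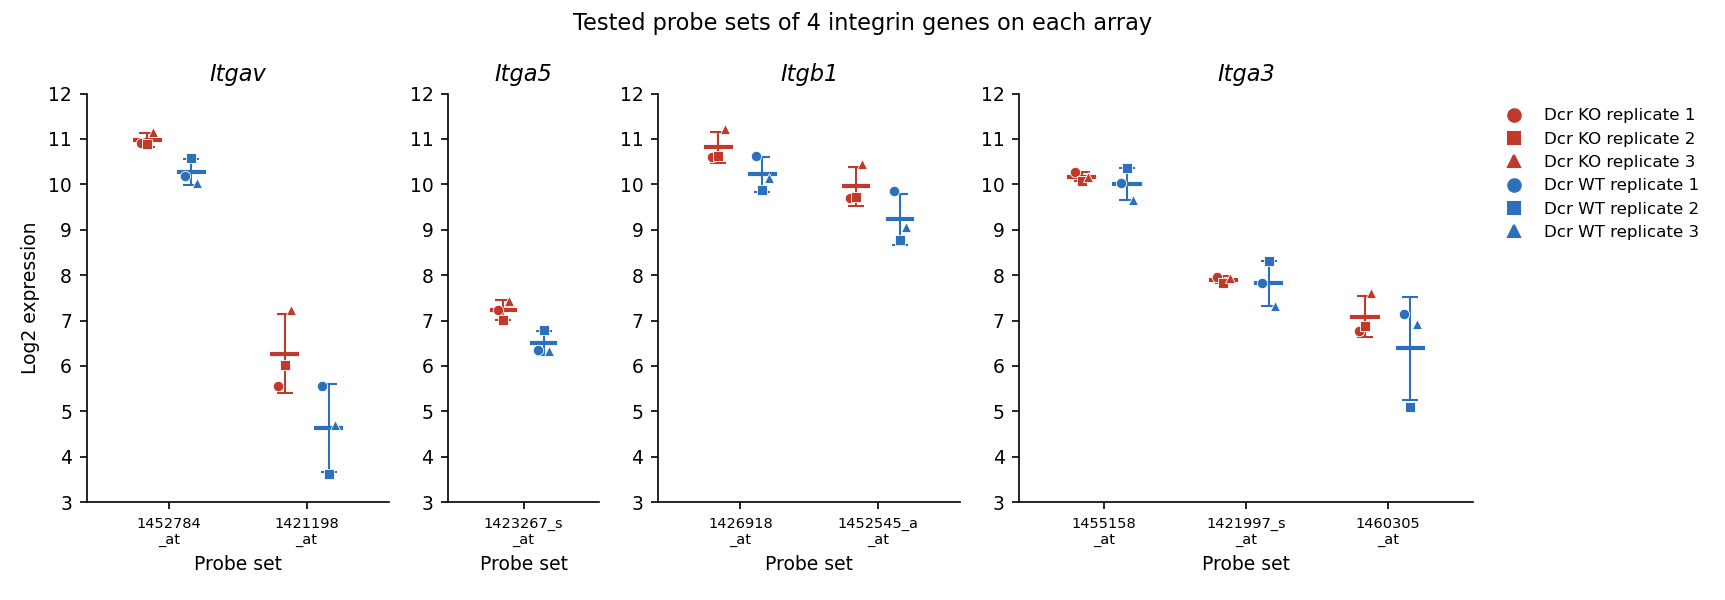
Log2 expression of the tested probe sets of Itgav, Itga5, Itgb1 and Itga3 on each array, with Dcr KO in red left of Dcr WT in blue. Points are arrays, thick bars are means and whiskers are 1 SD (n = 3), and the groups do not overlap on 1452784_at of Itgav or 1423267_s_at of Itga5.

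Itga3, the alpha subunit of a laminin-332 receptor, had a gene value of 8.34, 8.26 and 8.56 in Dcr KO, against 8.33, 7.92 and 7.97 in Dcr WT. Dcr WT replicate 1 lay within the Dcr KO range. The difference was 0.31 (95% interval -0.02 to 0.64, adjusted p = 0.176 from limma).

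Its 3 probe sets gave unlike pictures. The probe set 1455158_at read 10.28, 10.07 and 10.16 in Dcr KO, against 10.03, 10.36 and 9.65 in Dcr WT, with a difference of 0.16 (95% interval -0.29 to 0.61). The probe set 1421997_s_at had a difference of 0.08 and groups that overlapped. The probe set 1460305_at read 6.78, 6.88 and 7.60 in Dcr KO, against 7.14, 5.09 and 6.93 in Dcr WT, with a difference of 0.70 (95% interval -0.60 to 2.00). Dcr WT replicate 2 was the highest Dcr WT array on the first of these and on 1421997_s_at, yet the lowest on 1460305_at. It was likewise the highest Dcr WT array on 1452784_at of Itgav and the lowest on 1421198_at. Without Dcr WT replicate 3 the differences of 1455158_at and 1421997_s_at turned to -0.025 and -0.17.

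Itga6, the laminin receptor subunit long used as a surface marker of stem cells, had a small difference and little spread. Its gene value was 11.00, 10.97 and 10.88 in Dcr KO, against 10.77, 10.84 and 10.60 in Dcr WT. The groups did not overlap, but the difference was 0.21 (95% interval -0.03 to 0.45, adjusted p = 0.203 from limma). Both probe sets had every Dcr KO array above every Dcr WT array. The difference was 0.18 on 1422444_at (adjusted p = 0.366 from limma) and 0.24 on 1422445_at (adjusted p = 0.207 from limma).

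Itgb4, the only partner of alpha6 besides beta1, was dim, with 2.70, 2.89 and 3.22 in Dcr KO and 2.15, 2.14 and 2.58 in Dcr WT. Its single probe set did not overlap between groups, with a difference of 0.65. Itga9, the tenascin receptor subunit, had 2.85, 2.72 and 2.96 in Dcr KO and 2.43, 2.56 and 2.47 in Dcr WT. All 3 Itga9 probe sets had the Dcr KO arrays on top, with differences of 0.25, 0.45 and 0.37. Itga7, the laminin receptor subunit of muscle, had 2.63, 2.46 and 2.35 in Dcr KO and 2.40, 2.36 and 2.35 in Dcr WT, with overlap. These 3 genes were tested only with no minimum, where Itga7 had an adjusted p of 0.583 and none of the 3 was called.

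**Figure D3:**
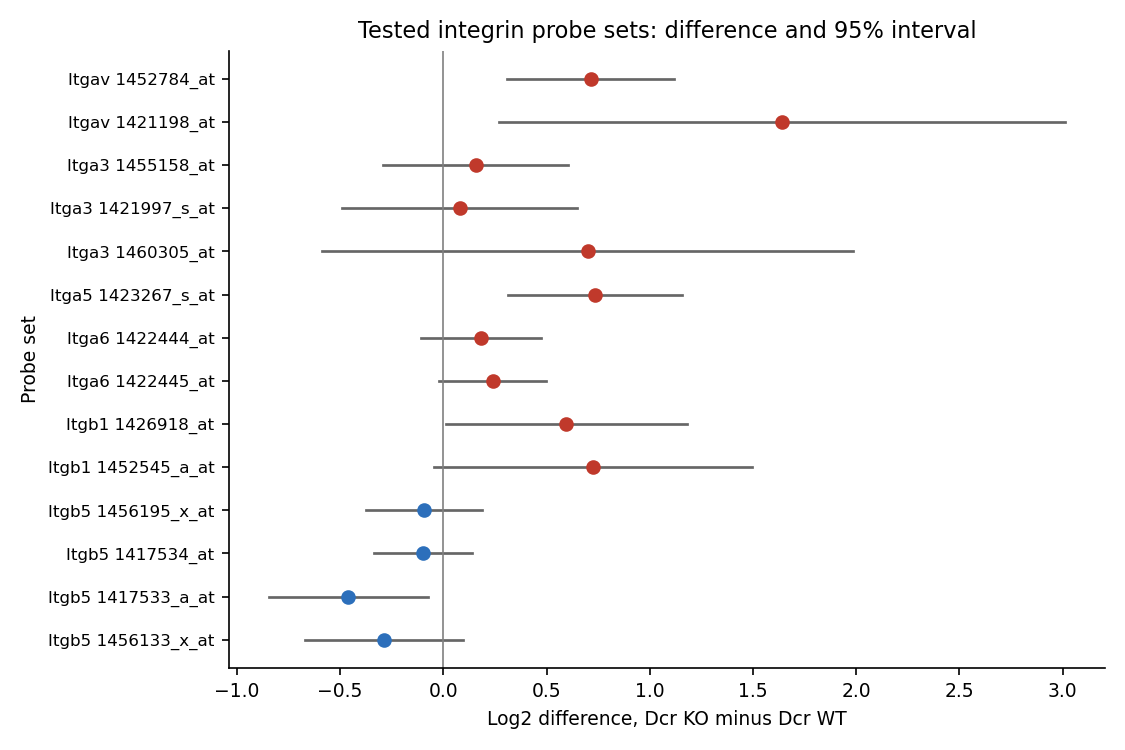
Log2 difference of Dcr KO minus Dcr WT for the 14 tested integrin probe sets, with 95% intervals from limma. Red points are above 0 and blue points, all of Itgb5, are below it, and the intervals of 5 probe sets leave out 0 before adjustment for the number of probe sets tested.

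Beyond the 10 members, 14 other integrin subunits are on the array, and 1 of them, Itgb8, passed the minimum. Itgb8, which pairs with alphav and binds latent TGF-beta, rose in Dcr KO cells. It read 6.64, 6.63 and 6.64 in Dcr KO, against 5.55, 6.13 and 5.65 in Dcr WT. The Dcr KO arrays were almost equal, and the groups did not overlap. The difference was 0.86 (SE 0.16, 95% interval 0.50 to 1.22), a 1.82-fold higher mean, with an adjusted p of 0.0151 from limma. The call was lost without Dcr KO replicate 2 (adjusted p = 0.0522) and without Dcr WT replicate 3 (adjusted p = 0.0596). Of the other 13, 11 were under the minimum on every array, among them Itga1, Itga2 and Itga4.

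The extracellular ligands of integrins were the list with the most calls. Of 26 on the array 16 were tested, and 7 were called higher and 0 lower, beside 6.91% and 6.42% of all tested genes. The median difference was 0.50, beside -0.02 for all tested genes. Nid1, a linker of laminin and type IV collagen in basement membranes, had 6.20, 6.38 and 6.88 in Dcr KO, against 5.16, 4.92 and 5.01 in Dcr WT. Its difference was 1.46 (SE 0.18, adjusted p = 0.00452 from limma), and the groups were far apart. Adam9, a membrane metalloprotease with a disintegrin domain, had 10.77, 10.73 and 10.97 in Dcr KO, against 10.23, 10.24 and 10.24 in Dcr WT, with a difference of 0.59 (adjusted p = 0.0136 from limma). Npnt, a ligand of alpha8 beta1, differed by 0.53 (adjusted p = 0.0225 from limma).

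Of the 7, Nid1, Adam9, Ccn2, Thbs1 and Col4a1 are on the study's list of predicted targets. The other 4 called ligands are named after their values were seen. Lama1, the laminin alpha1 chain, differed by 0.52 (adjusted p = 0.0409 from limma), and Col4a1, a type IV collagen chain, by 0.64 (adjusted p = 0.0456), a call lost with its brightest probe set (0.49, adjusted p = 0.108). Ccn2, a matricellular protein, differed by 0.81 (adjusted p = 0.0314 from limma). Thbs1, thrombospondin, had 9.16, 9.44 and 10.48 in Dcr KO, against 8.83, 7.71 and 7.81 in Dcr WT, with a difference of 1.57 (adjusted p = 0.0389 from limma). Dcr KO replicate 3, the highest array for Itgav and Itgb1, was also the highest for Nid1, Adam9, Ccn2, Thbs1 and Col4a1.

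The proteins that work with integrins inside and around the cell had few calls. Over all tested genes limma called 6.91% higher and 6.42% lower. Among activators and tail binding proteins, 1 of 18 tested genes rose, Tns3 (0.53, adjusted p = 0.0483 from limma), a tensin that joins beta tails to actin, and the list median was 0.07. Among focal adhesion kinases and adaptors, 1 of 19 rose, Tgfb1i1, a paxillin relative, and the median was 0.06. Tgfb1i1 had 7.32, 7.54 and 8.44 in Dcr KO, against 6.35, 6.71 and 6.14 in Dcr WT (difference 1.37, adjusted p = 0.0232 from limma). Neither list had a gene called lower.

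Among actin linkers of focal adhesions, 2 of 20 rose, Lima1 (0.52, adjusted p = 0.0367 from limma), which bundles actin filaments, and Svil (0.43, adjusted p = 0.0382), which ties actin to membranes, with a median of 0.20. Among membrane partners, 1 of 14 rose, the syndecan Sdc2 (0.52, adjusted p = 0.0338 from limma), with a median of 0.20. In integrin traffic, 1 of 16 rose and 1 fell, with a median of 0.12. These counts stand beside 6.91% of all tested genes called higher and 6.42% called lower. Rab11a, a GTPase of recycling endosomes, rose (0.44, adjusted p = 0.0287 from limma), but its brightest probe set alone gave 0.07 (adjusted p = 0.666). Rab25, its epithelial relative, had 4.33, 4.58 and 4.10 in Dcr KO, against 5.48, 4.89 and 5.56 in Dcr WT, and fell (-0.97, adjusted p = 0.0225 from limma).

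Over the 7 lists other than the 10 members there were 14 genes called higher and 1 lower of 104 tested. The shares over all tested genes were 6.91% higher and 6.42% lower. The median difference of these lists was 0.14. The count of 14 higher fell with any array left out, to between 2 and 11. It was 2 without Dcr KO replicate 2 or without Dcr WT replicate 3. It was 7 without Dcr KO replicate 1, Dcr KO replicate 3 or Dcr WT replicate 1. Over all tested genes the count higher also fell, from 607 to between 220 and 465. Of the 15 called genes 2, Nid1 and Adam9, were called in each of the 6 fits. Of the other called ligands, Ccn2, Npnt and Thbs1 were called in 2 fits each, and Col4a1 and Lama1 in 1 each. Another 2, Rab11a and Sdc2, were called in none of the 6. The difference of Rab11a still stayed between 0.38 and 0.47 in those fits, and that of Sdc2 between 0.399 and 0.595.

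**Figure D4:**
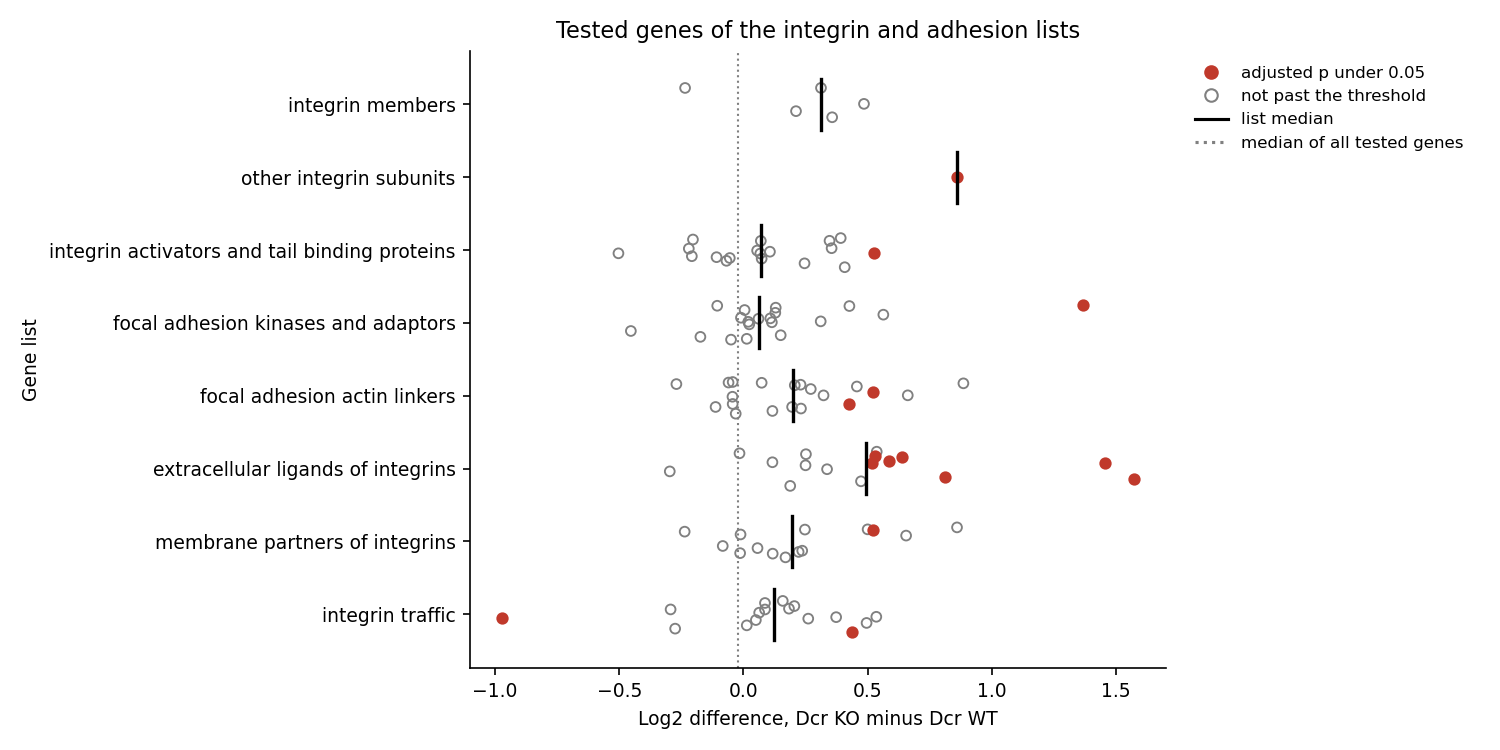
Log2 difference of Dcr KO minus Dcr WT for every tested gene of the integrin members and of the 7 other lists, with a row per list. Filled red points passed an adjusted p under 0.05 and open points did not, black bars are list medians, and the dotted line is the median of all tested genes, -0.02. The extracellular ligands have 7 filled points of 16, all above 0, beside 6.91% of all tested genes called higher.

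Markers of cell identity moved as well and are given beside these results. Their counts stand beside 6.91% of all tested genes called higher and 6.42% called lower. All 17 pluripotency genes on the array were above the minimum on some array, 2 of 16 tested rose, Klf2 (1.25, adjusted p = 0.00161 from limma) and Prdm14 (1.22, adjusted p = 0.0114), and 0 fell. Among those not called, Tdgf1 (-0.34) and Utf1 (-0.25) were lower on every Dcr KO array. Sox2 (0.33), Pou5f1 (0.38), Nr0b1 (0.64), Zfp42 (0.29) and Dppa5a (0.09) were higher on every one. Over all tested genes, 17.7% were higher and 21.2% lower on every Dcr KO array. Summed linear levels of the pluripotency list were 56446 to 57157 in Dcr KO and 48581 to 53227 in Dcr WT. Of 12 primitive endoderm markers 9, Gata4, Gata6 and Sox17 among them, were under the minimum on every array, and the sum was 696 to 759 in Dcr KO and 519 to 656 in Dcr WT. Only Lama1, which is also on the ligand list, rose among them. Of 12 fibroblast markers 6 were under the minimum on every array. Of 4 tested, Acta2 rose (0.72, adjusted p = 0.0182 from limma) and 3 were not called, with S100a4 at -0.29 and Col1a1 at 0.25. The sum of the list was 171 to 194 in Dcr KO and 148 to 161 in Dcr WT.

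Of 9 neural markers on the array 6, Pax6 and Sox1 among them, were under the minimum on every array. Of 3 tested, Tubb3 (0.73, adjusted p = 0.0100 from limma) and Neurod1 (0.83, adjusted p = 0.0296) rose, and Nes was not called (-0.07). The sum of the list was 737 to 869 in Dcr KO and 439 to 542 in Dcr WT. Of 9 primitive streak and epiblast markers Mesp1, Gsc and Lhx1 were under the minimum on every array. Of 4 tested, Pou3f1 fell (-0.54, adjusted p = 0.0428 from limma), a call lost with its brightest probe set (-0.17, adjusted p = 0.365). The other 3 were not called, with Otx2 at -0.92 (adjusted p = 0.0604 from limma), Mixl1 at -0.64 and Eomes at -0.265. The list had a sum of 353 to 365 in Dcr KO and 442 to 617 in Dcr WT. Of 11 trophectoderm markers Cdx2, Elf5, Hand1 and Tpbpa were under the minimum on every array, and 0 of 6 tested passed. The sum was 18496 to 19837 in Dcr KO and 14501 to 18431 in Dcr WT. It came mostly from Krt18 and Krt8, with Dcr KO means of 13.46 and 12.74, before Tfap2c at 9.59. The sums of the endoderm and neural lists also came mostly from few bright genes. On leaving out each array in turn, Klf2, Prdm14 and Tubb3 were called in all 6 fits, Acta2 in 4, and Neurod1, Pou3f1 and Lama1 in 1 each. The calls of Neurod1 and Pou3f1 held only without Dcr WT replicate 3, and that of Lama1 only without Dcr WT replicate 2. The part of such cells in the integrin and ligand values was not tested.

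Across the 6 arrays, the tested genes with the pattern most like that of Itgav were Cttnbp2nl (Pearson r = 0.997), Pes1 (0.995), Nfatc2ip (0.995), Hmgn5 (0.994) and Cyld (0.994). Of these Cttnbp2nl was called higher (0.61, adjusted p = 0.0422 from limma), and the other 4 were not called. For Itgb1 they were Rai14 (0.996), Arhgap29 (0.994), Spop (0.993), Topors (0.992) and Adss (0.992), and none of these 5 was called. These correlations include the difference between the groups and were the highest among 8782 genes over 6 arrays, so they are a description.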

How the data were processed

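Total RNA of 3 Dcr KO and 3 Dcr WT samples was hybridised to 1-colour oligonucleotide arrays. What the authors deposited is a log2 value for each probe set on each array, made with GCRMA 2.20.0 in R 2.11.1 per the submitters' processing notes. GCRMA corrects background by probe composition and normalizes across arrays, which can make differences of dim probe sets less certain. Groups came from the labels, and all columns of arrays were used.

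Gene names came from the platform annotation, in which 34945 probe sets had 1 symbol, 932 several and 9160 none. Of the first, the Entrez IDs of 34741 were found in the RefSeq table of GRCm38.p6, which changed 0 symbols. A gene value is the mean log2 of its probe sets. The values name no build, so no gene coordinates are given.

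Dcr KO and Dcr WT were compared with limma 3.58.1 (lmFit and eBayes, two-sided) in R 4.3.3, for genes and probe sets whose mean reached 4, with Benjamini-Hochberg adjustment. The fit was tested on simulated data. Python 3.11.15 with pandas 2.3.3, numpy 2.4.6 and matplotlib 3.10.9 joined the tables and drew the plots. Alternatives were other minimums, quantile or median normalization, other gene values and variance priors, a replicate block and leaving out each array.

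Named genes are the 10 members by probe set, Dicer1, up to 3 called genes a direction of each list by adjusted p, every other called subunit, and the 5 genes best correlated with Itgav and with Itgb1. Some cell type markers that were not called are also named, after their values were seen. The members and lists were chosen with earlier results of these data known.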

Additional observations from a re-analysis of the deposited data

How the results depend on the processing

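The counts of integrin calls depended on the gene value, the minimum and the arrays. Main counts were 0 genes and 0 probe sets in either direction. Genes called higher were 1 with no minimum, 2 with the brightest probe set and 2 with the mean of probe sets of at least 4. They were 0 in each of the 6 fits that left out an array. Probe sets called higher were 2 with a mean of at least 5, 1 with quantile normalization, 2 with a variance trend and 0 to 2 on leaving out an array, with 2 without Dcr WT replicate 2. No alternative called a member lower. The tested members kept their direction under every alternative, except 1455158_at and 1421997_s_at of Itga3. On leaving out an array these ran between -0.025 and 0.33 and between -0.17 and 0.33, below 0 without Dcr WT replicate 3. Adhesion genes called lower, 1 in the main fit, were 2 with no minimum, 0 with a mean of at least 5, 2 with a Dcr WT mean of at least 4, 3 with the brightest probe set, 3 with probe sets of at least 4 and 0 to 1 on leaving out an array. Adhesion genes called higher, 14 in the main fit, were 2 to 11 on leaving out an array. All genes called higher, 607 in the main fit, were 220 to 465 on leaving out an array, lowest without Dcr KO replicate 2, and all genes called lower, 564, were 137 to 376. Dicer1 stayed between -1.56 and -1.15 and was called in all 6 of these fits. Deviations of arrays with the same replicate number correlated at -0.22, -0.02 and 0.03, and those with unlike numbers at -0.23 to 0.31. With 3 arrays a group, these correlations cannot settle whether the numbers pair the samples. With the replicate number as a block there were 0 integrin calls, 3 adhesion genes higher and 0 lower, and 354 genes higher and 243 lower. Among named genes, Tns3 also lost its call with no minimum, probe sets of at least 4, quantile or median normalization and a robust prior, Lama1 with quantile or median normalization, Svil with quantile normalization, and Col4a1 and Pou3f1 with no minimum (adjusted p between 0.05 and 0.058 in each). The causes were not tested. Precision is limited by 3 arrays a group, and means under 4 were tested only with no minimum.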

Other observations

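Itgae, the alpha subunit that pairs with beta7 on lymphocytes in epithelia, lay on the minimum on 1 of its probe sets, 1447541_s_at, and is named after its values were seen. It read 3.84, 3.78 and 2.71 in Dcr KO, against 4.04, 4.79 and 4.84 in Dcr WT. Every Dcr KO array was below every Dcr WT array, with a difference of -1.11 (95% interval -1.96 to -0.27, adjusted p = 0.102 from limma), and the probe set was not called. All its Dcr KO values were under the minimum of 4, so it entered the test only through its Dcr WT values. Its direction is thus not independent of the minimum. The other Itgae probe set, 1449216_at, read 3.16, 3.40 and 2.86 in Dcr KO, against 3.76, 3.34 and 4.11 in Dcr WT, with overlap. Itga8, the partner of beta1 that binds nephronectin, had 1 tested probe set, 1454966_at, with 4.89, 4.54 and 5.71 in Dcr KO and 4.83, 5.19 and 4.46 in Dcr WT, which overlapped.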
